A study of Mus musculus with 6 samples.

Results

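The interleukin-6 family genes described here are 10 genes chosen by symbol: the cytokines Il6, Lif and Osm, the receptor chains Il6ra, Il6st, Lifr and Osmr, the transcription factor Stat3, and the feedback inhibitors Socs1 and Socs3. All 10 were found, in 1 row each, among the 20494 rows of the authors' deposited table. The table compares whole lungs of untreated male C57BL/6 mice aged 4 months, 3 with a knockout of the long noncoding RNA lincRNA-Cox2 and 3 wild type. The labels name no promoter or Cre driver for the knockout, give each library a title of its own, and say nothing of litters or pooled animals. Since they do not say that the libraries came from separate animals, p-values measure only the spread between these libraries.

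Cytokines of this family signal through receptor complexes that share gp130, the protein of Il6st. Interleukin-6 first binds its own receptor chain, encoded by Il6ra, while leukemia inhibitory factor and oncostatin M bring gp130 together with the chains of Lifr or Osmr. The complexes activate JAK kinases, which phosphorylate STAT3, and STAT3 induces Socs3, whose protein binds gp130 and shuts the signal off. Socs1 is induced mainly by interferons and restrains JAK kinases. In lung the family is known for acute-phase responses, neutrophil recruitment and epithelial repair, and Il6 is a gene whose induction in stimulated macrophages has been linked to lincRNA-Cox2.

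Upstream sequence is shown for Il6 and Socs3, the members that rank first by p-value and that stand for the start and the feedback end of the pathway. The letters are from RefSeq (GRCm38.p6, the assembly of mm10), which held windows for 9 of the 10 genes, and run 5′ to 3′ on the strand of the gene. The Il6 window is chr5:30012864-30013113 on the plus strand, the 250 bases before the start. The Socs3 window is chr11:117969452-117969616 on the minus strand, 165 of the 250 bases before the start in the RefSeq set, since the other 85 lie in or after an annotated exon. GENCODE M21 places the 5′ end of Socs3 further upstream, at 117970047, so by that annotation this window lies within the gene. Capitals mark letters that fit a pattern named beneath.
Il6: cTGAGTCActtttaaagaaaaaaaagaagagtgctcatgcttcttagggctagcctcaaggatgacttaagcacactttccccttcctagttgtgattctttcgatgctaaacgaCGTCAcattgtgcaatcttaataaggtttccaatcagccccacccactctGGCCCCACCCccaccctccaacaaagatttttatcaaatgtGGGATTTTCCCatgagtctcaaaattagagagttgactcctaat
Socs3: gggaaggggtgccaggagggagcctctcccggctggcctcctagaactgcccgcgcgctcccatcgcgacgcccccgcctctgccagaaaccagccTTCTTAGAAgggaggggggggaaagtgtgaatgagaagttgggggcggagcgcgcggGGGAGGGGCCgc

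In the Il6 window the capitals mark 4 places. TGANTCA, the AP-1 pattern, stood 249 to 243 bases before the start and fits on both strands. TGACG, the core of the cAMP response element, stood on the opposite strand 135 to 131 bases before it. The pattern of NF-kB sites, GGG and CC with any 5 bases between, fitted on the opposite strand from 85 to 76 and on both strands in overlapping matches from 44 to 34 bases before the start. Of 32851 windows of 250 bases in the RefSeq set, 6.75% held the AP-1 pattern, 17.8% TGACG and 45.8% the NF-kB pattern on either strand, so the last is common by its letters alone. In the Socs3 window, TTCNNNGAA, the pattern of STAT dimers, lay 154 to 146 bases before the start and reads the same on both strands; 7.02% of all windows held it. The other capitals there fit the NF-kB pattern, 97 to 88 bases before the start. The NF-kB pattern was found in windows of 7 members, the AP-1 pattern in those of Il6 and Lif, and TGACG in those of Il6 and Il6ra. These counts include Il6ra and Osmr, whose windows lie with all 250 bases in or after an annotated exon. Their matches, NF-kB for both and TGACG for Il6ra, are therefore not outside exons. The shorter STAT pattern was in this 1 of the 10 windows of the 9 members, and the longer STAT pattern with 4 bases between TTC and GAA, the full TGACGTCA and the serum response element (CArG box) were found in none of them. A match of letters is a description of the window and not a measured site.

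The table holds the authors' mean normalized count of each genotype, that is, counts per gene after division by each library's size factor, and 1 comparison of knockout with wild type. The means summed to 3.71e+07 in wild type and 3.68e+07 in knockout; being scaled, they do not give the depth of a library. In the authors' deposited table the targeted transcript had means of 311 and 0.666, and its neighbour Ptgs2 2929 and 298. Lung markers (Sftpc, Sftpb, Ager, Scgb1a1 and 6 others) were all present, with the lowest mean at 9261. Of these 10, Foxf1, a gene of lung mesenchyme and endothelium, was called lower (log2 ratio -0.30 ± 0.08, by DESeq2 in the authors' deposited table an adjusted p of 0.0374). Cldn5 and Scgb3a2 had an unadjusted p under 0.05 and lower means. Of the 16902 rows with an adjusted p, 1.09% were called in either direction, and 4.04% were lower at an unadjusted p under 0.05. Differences are given below as the log2 ratio of the knockout mean to the wild type mean. Its standard error is that ratio divided by the authors' Wald statistic, which undoes the shrinkage of the deposited fold changes, and 95% intervals are normal intervals from it. Called means an adjusted p under 0.05 in the authors' deposited table. This RNA is from whole tissue, in which fewer cells of a type and less RNA per cell cannot be told apart.

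In wild type lung the shared receptor and its transcription factor stood far above the cytokines. Per kb of exon, the level of Il6st was 1663 ± 55.5 normalized counts (SE, n = 3), followed by Stat3 with 947 ± 26.3. These SEs, for 3 libraries, come from counting error and the spread implied by the authors' fit to both genotypes. They were not measured over single libraries. Socs3 came next with 745 ± 31.6 per kb, at a level that did not differ from that of Lifr (695 ± 31.7) beyond the spread. Below these lay Osm with 284 ± 65.7 and Il6ra with 274 ± 10.5 per kb, which also could not be ordered, and Osmr with 228 ± 7.38. Lif had 84.3 ± 8.14 normalized counts per kb, Socs1 38.6 ± 3.73 and Il6 26.7 ± 4.67. Of the 9 pairs of neighbours in this order, 6 had a 95% interval of their log2 difference that excluded 0, and the 3 that did not were Socs3 with Lifr, Osm with Il6ra, and Socs1 with Il6. These intervals treat the genes of a pair as independent, although both were measured in the same libraries. The place of Osmr depends on the length used: with the longest transcript of 5491 bases in place of all exons (12113 bases) it ranked the fifth, ahead of Osm and Il6ra.

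**Figure D1:**
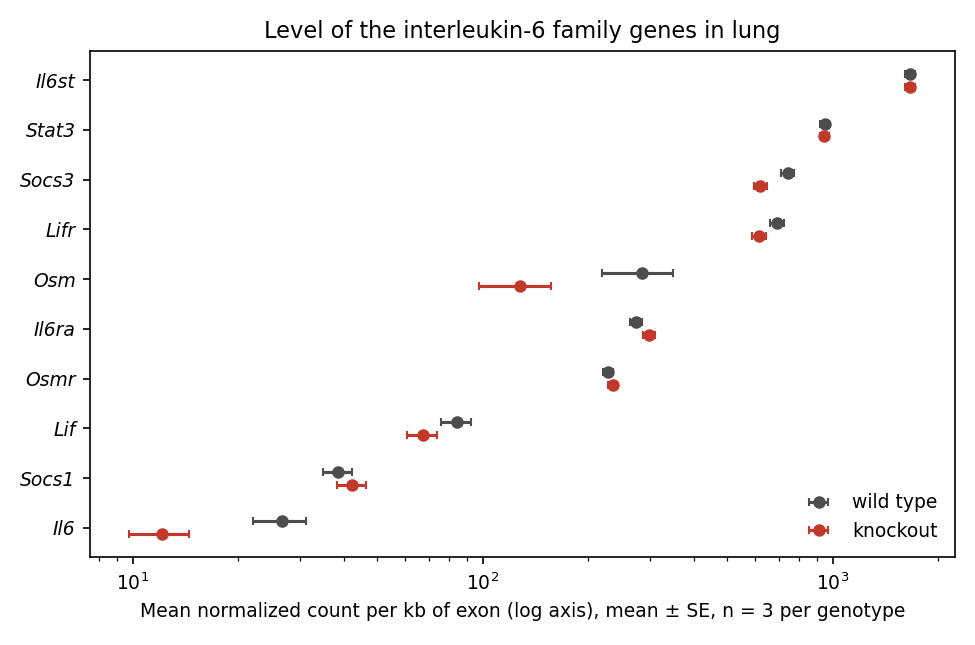
Mean normalized count per kb of exon (log axis) of the 10 genes in wild type (grey) and knockout (red), with bars of 1 standard error for 3 libraries. The bars come from counting error and the spread implied by the authors' fit to both genotypes. Il6st lies highest at 1663 in wild type and Il6 lowest at 26.7, and the distance between grey and red is widest for Osm and Il6.

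The genes lie on 6 chromosomes by GENCODE M21 (mm10), none of them on chromosome 1, which carries lincRNA-Cox2. The ligand genes Osm (chromosome 11, 4236420 to 4241026) and Lif (4257557 to 4272514) are neighbours on the plus strand, 16.5 kb apart. The receptor genes Osmr (chromosome 15, 6813577 to 6874969, minus strand) and Lifr (7090614 to 7197489, plus strand) are 216 kb apart. Stat3 (100885098 to 100939540) and Socs3 (117966079 to 117970047) lie on the minus strand of chromosome 11, Il6 on chromosome 5 (30013114 to 30019981, plus strand), Il6ra on chromosome 3 (89864059 to 89913196, minus strand), Il6st on chromosome 13 (112464070 to 112510086, plus strand) and Socs1 on chromosome 16 (10782240 to 10785536, minus strand).

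Among the cytokines, Il6, which drives the acute-phase response, was the lowest in level and had the smallest p of the 10 genes. Its reads could be read back for each library, since a low group mean is a sum of whole reads times a fixed value per library and only 1 set of reads gives the printed mean. Letters A to C name libraries within a genotype and match no animal across them. Wild type library A held 93 reads of Il6, B 53 and C 48, which are 91.5, 52.7 and 49.9 normalized counts. Knockout library A held 22 reads, B 42 and C 25, or 21.5, 41.1 and 25.6 normalized counts. The groups did not overlap: the highest knockout library, at 41.1, was below the lowest wild type library, at 49.9. Such separation is not rare among low genes, for of 1871 tested rows with reads recovered in both genotypes, 16.1% did not overlap in either direction and 9.09% had every knockout library below every wild type library.

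The means of Il6 were 64.7 ± 23.3 normalized counts in wild type and 29.4 ± 10.4 in knockout (SD, n = 3), 2.20-fold lower in knockout. An exact two-sided permutation test gave p = 0.10, the smallest that 3 libraries against 3 allow. The log2 ratio was -1.14 ± 0.38 (SE), with a 95% interval from -1.87 to -0.40. The authors' deposited table gives Il6 p = 0.00240, rank 328 of 16902 tested rows, and by DESeq2 an adjusted p of 0.124, so it was not called. At its spread, a 2.47-fold difference would have been needed for a call. Exact 95% Poisson intervals on the reads ran from 73.9 to 112 normalized counts for wild type A and from 29.7 to 55.6 for knockout B, and cover counting error only.

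**Figure D2:**
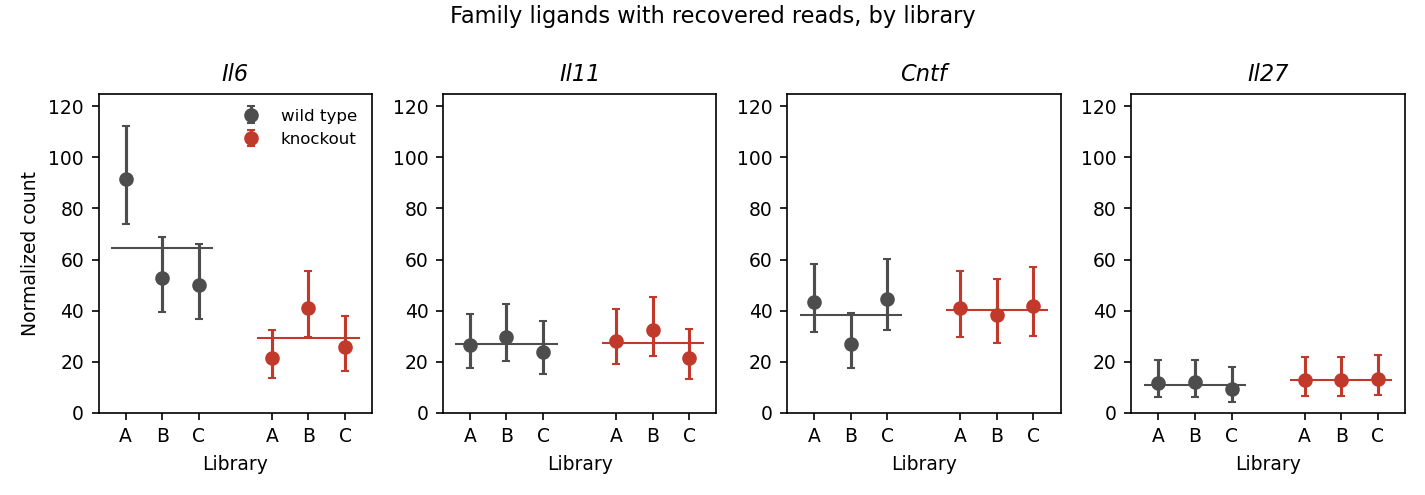
Normalized counts of Il6, Il11, Cntf and Il27 in each library, the family ligands low enough for their reads to be recovered; bars are exact 95% Poisson intervals on the reads and lines are group means. For Il6 the 3 knockout libraries (21.5 to 41.1) lie below the 3 wild type ones (49.9 to 91.5), for Il11 and Cntf the groups overlap, and for Il27 the knockout libraries (12.7 to 13.3) lie just above the wild type ones (9.36 to 11.9), well within the counting intervals.

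Osm, a cytokine made by neutrophils and macrophages, stood at a mean of 646 normalized counts in wild type and 290 in knockout (authors' deposited table), a ratio close to that of Il6. It was 2.23-fold lower, with a log2 ratio of -1.16 ± 0.47 (SE) and an interval from -2.08 to -0.23. Its adjusted p in the authors' deposited table was 0.349 (unadjusted p = 0.0144), and it was not called. The spread was so wide that only a 3.13-fold difference would have been called. Lif, a cytokine of stromal and epithelial cells that lies beside Osm, had wild type and knockout means of 367 and 293 (authors' deposited table), and a log2 ratio of -0.33 ± 0.20 (SE) with an interval from -0.71 to 0.06. The adjusted p of Lif there was 0.739. The reads of single libraries could not be obtained for Osm or Lif: at a tolerance of 1.2 times the largest rounding error of the printed mean, 660 sets of reads give the wild type mean of Osm and 213 that of Lif, and at 2 times that error 1116 and 369. Il6 had 1 set at either tolerance in both genotypes.

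None of the 4 receptor genes was called. The authors' deposited table gives Il6st, encoding gp130, means of 18454 in wild type and 18503 in knockout, and the log2 ratio of 0.00 ± 0.07 had an interval from -0.13 to 0.14. Il6ra, which makes cells able to bind interleukin-6 itself, had means of 2369 and 2581 there, with a log2 ratio of 0.12 ± 0.08 and an interval from -0.03 to 0.28. Osmr, the oncostatin M receptor of stromal and epithelial cells, was at 2762 and 2846 by the authors' deposited table, with an interval of its log2 ratio from -0.09 to 0.17. Lifr, the chain that binds leukemia inhibitory factor, was at 7486 and 6630 there, with a log2 ratio of -0.18 ± 0.09 with an interval from -0.36 to 0.01. The adjusted p-values of Il6ra, Il6st, Lifr and Osmr were 0.761, 0.999, 0.627 and 0.991 in the authors' deposited table. For these 4 receptor genes a difference of 1.17-fold (Osmr) to 1.25-fold (Lifr) would have been called.

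Stat3, which carries the signal into the nucleus, was at a mean of 9026 in wild type and 9017 in knockout (authors' deposited table). Its log2 ratio was 0.00 ± 0.06, and the interval from -0.11 to 0.11 was the narrowest of the 10 genes. Socs3, the feedback inhibitor that STAT3 induces, was at 2155 in wild type and 1796 in knockout by the same authors' deposited table. The log2 ratio of Socs3 was -0.26 ± 0.09 with an interval from -0.43 to -0.09. Its p was 0.00253 (adjusted p = 0.128, authors' deposited table), and a 1.23-fold difference would have been called. Socs1 had means of 112 and 123 there, a log2 ratio of 0.13 ± 0.20 and an interval from -0.25 to 0.52 (adjusted p = 0.988 in the authors' deposited table).

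Taking the 10 genes as a list, 0 were called in the authors' DESeq2 comparison, where 1.09% of the 16902 tested rows were. At an unadjusted p under 0.05 there were 3, Il6, Osm and Socs3, all lower in knockout, against 4.04% of all tested rows that were lower at this p and 8.47% in either direction. By the ratio of means 6 of the 10 were lower and 4 higher, with a median log2 ratio of -0.09, beside -0.00 over all tested rows. The 95% interval lay below 0 for the same 3 genes and held 0 for the other 7.

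**Figure D3:**
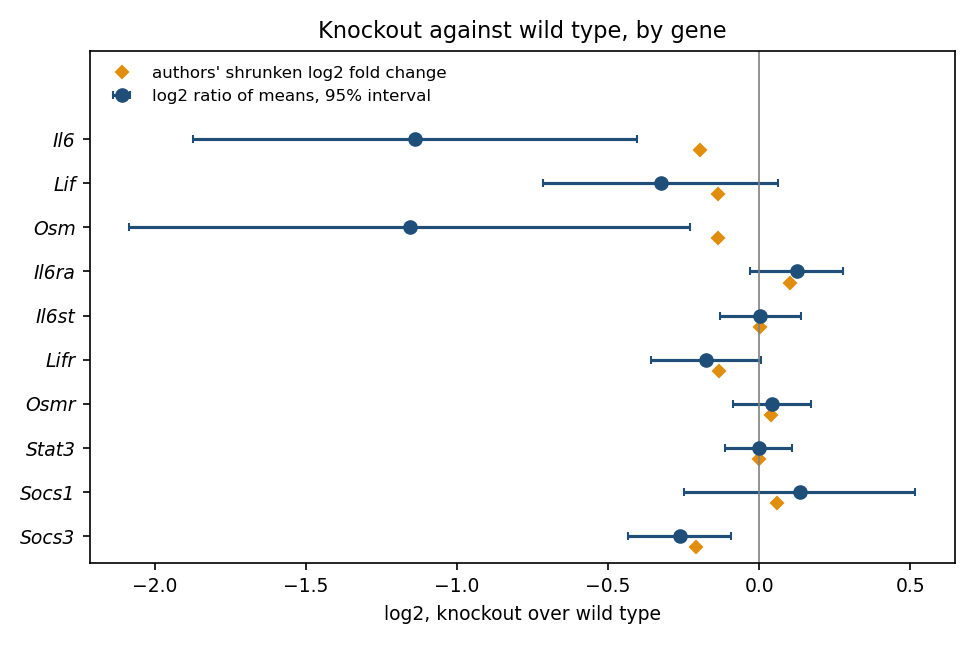
The log2 ratio of knockout to wild type means with its 95% interval (blue) and the authors' shrunken log2 fold change (orange), by gene. The intervals of Il6, Osm and Socs3 lie below 0; shrinkage brought Il6 from -1.14 to -0.20 and Osm from -1.16 to -0.14, and left Socs3 at -0.21 against -0.26.

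The standard errors also give the coefficient of variation (CV) between libraries that the authors' fit used, beyond counting error. It was 39.8% for Osm, above that of 99.6% of the 4224 tested rows with a mean within 2-fold, whose median was 8.19%. Lif had a CV of 15.9% (percentile 96.7 among rows of like mean) and Lifr 7.82% (percentile 94.2). For Il6 the CV was 27.7%, at percentile 85.6 among rows of like mean, whose median was 21.2%. The spread of Il6 measured from its recovered reads, counting error included, was 36.0% in wild type and 35.3% in knockout. Socs3, at 7.03%, and Il6ra, at 6.31%, were at percentiles 83.8 and 76.0. The CV of Il6st was 5.73% and those of Osmr, Stat3 and Socs1 were 5.27%, 4.70% and 13.8%, these last 3 below the median of rows of like mean. So 7 of the 10 genes varied more between libraries than the median row of like mean. These CVs hold for both genotypes jointly and do not tell which library was high.

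**Figure D4:**
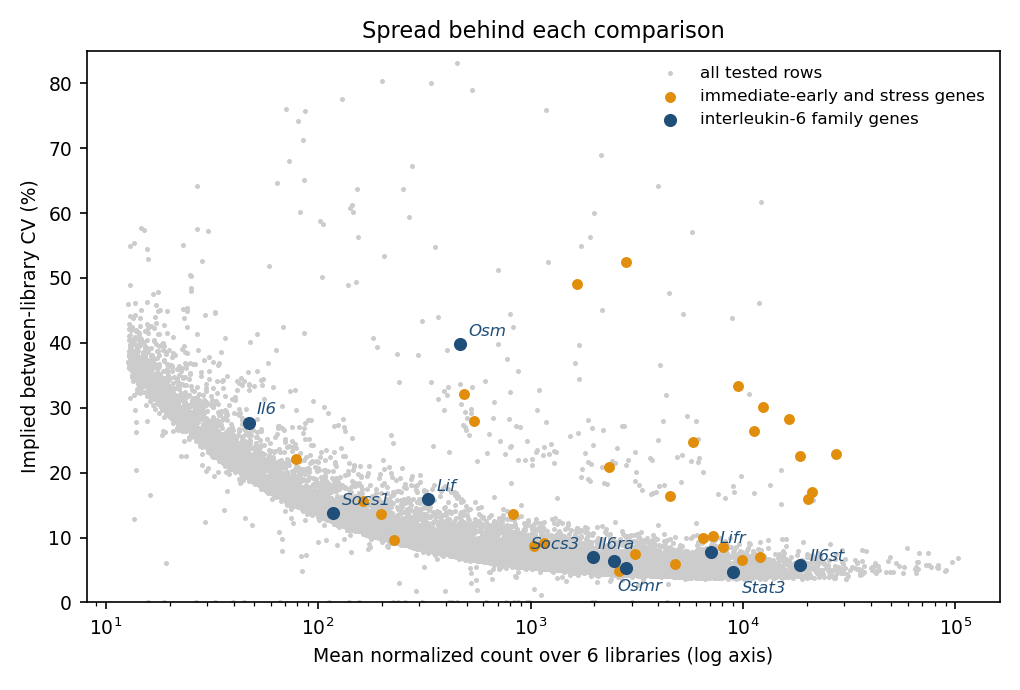
Between-library CV (%) implied by each comparison against the mean normalized count over 6 libraries (log axis), for all tested rows (grey), 30 immediate-early and stress genes (orange) and the 10 family genes (blue); 8 rows above 85% are not drawn. Osm lies well above the grey band at 39.8%, in the range of the most variable orange genes, and Lif and Il6 lie at the upper side of the band.

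Other genes of the pathway were read from lists of 72 genes, of which 70 were in the table and 66 had an adjusted p. Of these 66, 3 were called, 1 higher and 2 lower in knockout, and the median log2 ratio was -0.02. Over all 16902 tested rows 1.09% were called. None of the 6 tested further ligands was called by DESeq2 in the authors' deposited table, and 0 reached an unadjusted p under 0.05. They included Ctf1 (log2 ratio 0.17 ± 0.15), Clcf1 (-0.06 ± 0.11) and Ebi3, a subunit of interleukin-27 (0.10 ± 0.23). Il11, a gp130 cytokine of stromal cells, had 27, 30 and 23 reads in the wild type libraries A to C and 29, 33 and 21 in the knockout. Cntf had 44, 27 and 43 reads in wild type and 42, 39 and 41 in knockout, so that both genes overlapped between genotypes. Il27, which encodes a subunit of interleukin-27, had 12, 12 and 9 reads in wild type and 13, 13 and 13 in knockout. Its groups did not overlap, in the opposite direction to Il6, by less than the counting error; the authors' deposited table gives it an unadjusted p of 0.685 and no adjusted one.

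Of the 4 further receptors 0 were called and all had ratios below 1. Il27ra, the receptor chain for interleukin-27, had a log2 ratio of -0.24 ± 0.12 (p = 0.0493, adjusted p = 0.586 in the authors' deposited table), Il11ra1 -0.11 ± 0.08, Il31ra -0.10 ± 0.18 and Cntfr -0.03 ± 0.14. Among 16 kinases, phosphatases and other STAT genes, the authors' DESeq2 comparison called 0 and gave 0 an unadjusted p under 0.05, with log2 ratios from -0.13 (Stat2) to 0.19 (Stat4). Jak2, a kinase bound to gp130, was at 0.10 ± 0.06 and Jak3 at -0.12 ± 0.08. The sheddases Adam17 and Adam10, which release soluble interleukin-6 receptor, had log2 ratios of 0.07 ± 0.06 and -0.01 ± 0.06.

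Within the SOCS family Socs3 was not alone in having a small p. Of the 6 other members 0 were called, but Socs4 was 1.23-fold higher (log2 ratio 0.29 ± 0.11, p = 0.00705, adjusted p = 0.237 in the authors' deposited table). Cish, a feedback inhibitor induced by STAT5, was 1.13-fold lower (log2 ratio -0.17 ± 0.08, p = 0.0374, adjusted p = 0.535 in the authors' deposited table). Socs2 and Socs5 had log2 ratios of 0.10 ± 0.08 and -0.04 ± 0.07.

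Of 10 regulators of Il6 transcription and mRNA decay, 2 were called, both lower, beside 1.09% of all tested rows called. Nfkbiz, encoding IkB-zeta, a nuclear cofactor that NF-kB needs to induce Il6, fell from a mean of 1367 to 956 (log2 ratio -0.52 ± 0.13, adjusted p = 0.00719, authors' deposited table). Zfp36, encoding tristetraprolin, which promotes decay of cytokine mRNAs, fell from 20121 to 10150 there (log2 ratio -0.99 ± 0.24, adjusted p = 0.00746 in the authors' deposited table). By row number in that table, Nfkbiz is followed by Nxpe3, which had a log2 ratio of 0.79. Of other rows close in number, Tbc1d23 was at 0.44 and Cd200 at -0.65, while Cep97 and Rpl24 were at -0.11 and -0.10. Whether the genome region around Nfkbiz bears on its lower mean was not tested. Cebpd, a transcription factor of the acute-phase response, had a log2 ratio of -0.24 ± 0.12 (p = 0.0469, adjusted p = 0.578 in the authors' deposited table). The other 7, among them Zc3h12a and Arid5a, which destabilise and stabilise Il6 mRNA, had log2 ratios between -0.17 and 0.05.

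Of 22 tested STAT3 target genes 1 was called, Lcn2, beside 1.09% of all tested rows called. Lcn2 encodes an iron-binding protein of neutrophils and epithelium. It was 1.26-fold higher in knockout (log2 ratio 0.33 ± 0.07, adjusted p = 0.000534 in the authors' deposited table). Pim1, a kinase gene induced by STAT signals, and Junb, an AP-1 gene, reached an unadjusted p under 0.05 and were lower. In the authors' DESeq2 comparison 4.04% of all tested rows were lower at this p, and 8.47% reached it in either direction. Pim1 had a log2 ratio of -0.36 ± 0.11 (p = 0.00122, adjusted p = 0.0808 in the authors' deposited table). Junb was at -0.83 ± 0.31 (p = 0.00807, adjusted p = 0.255 in the authors' deposited table). Over the 22 genes the median log2 ratio was -0.01, with 10 above 1 in ratio and 12 below.

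**Figure D5:**
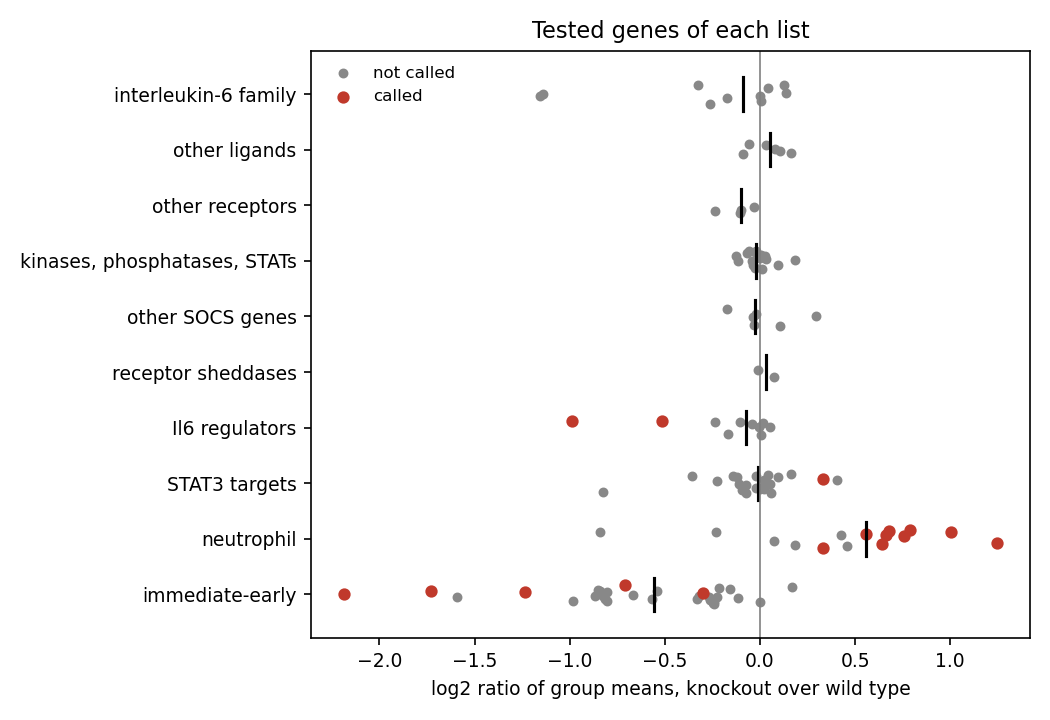
The log2 ratio of knockout to wild type means for each tested gene, by list, with a black bar at the median and called genes in red. The family genes and most pathway genes sit near 0, with Il6 and Osm near -1.1, while neutrophil genes lie mostly above 0 (median 0.56) and immediate-early genes mostly below (median -0.56).

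Some markers of other cell types and states moved with genotype in the same libraries, chiefly neutrophil and immediate-early genes. Over all 16902 tested rows 1.09% were called, and 4.04% were lower at an unadjusted p under 0.05 by the authors' DESeq2 comparison. Of 15 tested neutrophil genes 9 were called, all higher in knockout, and the means of 17 genes in the authors' deposited table summed to 17265 in wild type and 20994 in knockout. Lcn2 is on this list too. Other genes of the list had lower means in knockout. G0s2 had a log2 ratio of -0.23 ± 0.09 (by the authors' DESeq2 comparison p = 0.00794 and adjusted p = 0.254), and Ltf, a gene of neutrophil granules, -0.84 ± 0.66. Of the sums above Ltf held 2449 and 1366, while Camp and Ngp of the same list had means of only 1.33 and 10.4. Which cells made the Ltf RNA was not tested. Immediate-early and tissue stress genes went the other way: 5 of 30 were called, all lower (Atf3, Nr4a1, Egr1, Dusp2 and Rhob), 23 had an unadjusted p under 0.05, all lower, by the authors' DESeq2 comparison, and their means summed to 262805 in wild type and 163140 in knockout. Their median CV between libraries was 16.1%, against 7.17% over all tested rows. Junb is on this list as well. Of 9 alveolar macrophage genes 0 were called (sums of 34469 and 36228), and of 7 red cell genes 0 (sums of 82447 and 90464 in the authors' deposited table). Of 10 monocyte genes 1 was called, Nr4a1, which is also an immediate-early gene, and 6 of the 10 had ratios above 1. Their means summed to 84677 in wild type and 72590 in knockout, of which Nr4a1 held 14598 and 4408 and Ace 44059 and 39595. Chil3, which is also on the alveolar macrophage list, held 16193 and 17587, so these sums rest mostly on a few genes. Ccr2 and Ly6c2, which mark inflammatory monocytes, had log2 ratios of 0.33 ± 0.12 (p = 0.00690) and 0.30 ± 0.12 (p = 0.0108) in the authors' deposited table and were not called. None of the listed genes found in the table was at 0. The part of these cell types and states in the lower means of Il6, Osm and Socs3 was not tested.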

How the data were processed

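Total RNA of 6 whole lung libraries, 3 per genotype, was sequenced by the authors. Per the submitters' processing notes the tools were Bowtie2, STAR 2.5.1b, SAMtools, bedtools and DESeq2 with mm10, in no stated role; the counting rule, and whether it used strand, is not given in the sources used here. The labels name a TruSeq v2 kit, which does not mark strand, so reads of overlapping antisense genes cannot be told apart. Per the file headers, the authors deposited group means of normalized counts (a signal, scaled by each library's size factor), a shrunken log2 fold change with its standard error, the Wald statistic (a score), and p-values, raw and adjusted.

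The 10 genes and all lists were chosen with earlier results of these data known. The authors' DESeq2 comparison over all rows was the test (called: adjusted p under 0.05; tested: the 16902 rows with an adjusted p). The standard error of the log2 ratio of means was that ratio divided by the Wald statistic. The prior variance this implies was nearly constant over the 5933 rows used for the check (5th to 95th percentile 0.0285 to 0.0290), as a common shrinkage requires. The CV came from that standard error less counting error. The SEs of levels came from that CV and counting error, for 3 libraries. Reads were solved from group means up to 70; means up to 40 had exactly 1 solution in each of 4901 rows in wild type and 4877 in knockout. On simulated data, of 1500 means of wild type size 1448 were solved, all rightly, 52 had several solutions, and the CV was recovered to a median ratio of 1.00 over 1790 genes. Exon lengths are unions over GENCODE M21. Named from each list are called genes or, with none called, up to 4 with the smallest p; Il11, Cntf and Il27 (reads recovered) and genes behind counts of 5 or fewer were named after their values were seen. Python 3.11.15 and scipy 1.17.1 were used.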

Additional observations from a re-analysis of the deposited data

How the results depend on the processing

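The count of called family genes was 0 as deposited, 0 with p-values adjusted over all 20477 rows that have one, and 0 adjusted over the 15217 rows with a mean of at least 50, a filter that drops Il6; at an unadjusted p under 0.05 the count was 3 in the authors' DESeq2 comparison. Over these settings the adjusted p ran from 0.124 to 0.150 for Il6 and from 0.120 to 0.155 for Socs3. The count of called pathway genes was 3 in each. The authors' shrunken fold change moved Il6 to -0.20 and Osm to -0.14, by construction, and moved the other 8 by less than their standard error. Scaling by the summed means, chosen after seeing the data, shifted every log2 ratio by 0.01, less than any standard error, and took Stat3 from -0.00 to 0.01. Leaving out 1 library at a time, the log2 ratio of Il6 ran from -1.46 (without knockout B) to -0.80 (without wild type A), and the mean of log2(normalized reads + 1) gave -1.11. The limma fits, their pseudocount and scaling, and leaving out libraries for the other 9 genes and for the count of called pathway genes were not run, since library values were recovered for 1 of the 10 genes and for 8 of the 70 pathway genes in the table, not including the 3 called. No paired analysis was possible because the deposited values are group means, recovered libraries match no sample, and the labels give no shared replicate numbers. Depth per library is not known from scaled means.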

Other observations

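Ccl2, a monocyte chemokine gene and STAT3 target, was low enough for its reads to be recovered, and was looked at after the Il6 values were seen. It had 67, 42 and 45 reads in wild type libraries A to C and 35, 55 and 43 in the knockout, with overlap between genotypes (log2 ratio -0.23 ± 0.32 (SE), adjusted p = 0.986 in the authors' deposited table). The library with most reads was wild type A among the wild type and knockout B among the knockout, as it was for Il6. With 6 libraries and a pair of genes this is a description only.

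The fibrinogen genes Fgg and Fga, acute-phase targets of interleukin-6 in liver, were near the floor in lung and had no adjusted p. In knockout library A, Fgg had 29 reads, against 4 and 3 in B and C, and Fga 10 against 1 and 1. The wild type libraries had 12, 10 and 12 reads of Fgg and 1, 1 and 3 of Fga. The serum amyloid gene Saa3 had 36, 19 and 27 reads in wild type and 42, 35 and 33 in knockout, and did not show this library apart.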
